A study of Mus musculus with 4 samples.

Results

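The 10 genes described here belong to the basement membrane, and they were followed through the early differentiation of mouse embryonic stem cells (mESCs). They are the laminin alpha chains Lama1, Lama4 and Lama5, the beta chains Lamb1 and Lamb2, the gamma chain Lamc1, the nidogens Nid1 and Nid2, and the heparan sulphate proteoglycans Hspg2 (perlecan) and Agrn (agrin). They were found by their Ensembl gene IDs, with the version dropped, and are 10 of the 55487 rows of the count table. RNA was sequenced from ES-E14TG2a cells, an mESC line that the study calls wild-type in comparison with its edited clones. Samples were taken at day 2 (d2) and day 4 (d4) of cardiogenic differentiation, with 2 biological replicates per day. The d2 cells had grown for 48 h without serum as aggregates. For d4, such aggregates were taken apart and left to re-form for 40 h in that medium, to which VEGF at 5 ng/ml, BMP4 at 0.5 ng/ml and Activin A at 8 ng/ml were added. Time, reaggregation and the added factors changed together and cannot be told apart. All 4 libraries come from 1 line and from whole unsorted cultures, and the question the comparison addresses is how the programme of endothelial cells (ECs) starts between the 2 days.

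A basement membrane is a thin sheet of matrix beneath epithelia and endothelia. Its laminins are trimers of an alpha, a beta and a gamma chain that join into a network on the cell surface, and the alpha chain carries the domains that bind integrins and dystroglycan. Nidogens tie the laminin network to type IV collagen, and perlecan and agrin add heparan sulphate chains that hold growth factors, VEGF among them. Blood vessels are known for the laminin chains encoded by Lama4 and Lama5, while the chain encoded by Lama1 is best known from the first basement membranes of the embryo.

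Total counts per library were between 11397439 and 16851485, and 14932 genes passed the filter on low counts. A count of 3 stood for 0.177 to 0.254 CPM, the count scaled to the size of the library. Pluripotency and epiblast markers had summed levels of 5715 and 4761 CPM in d2 replicates 1 and 2 and of 256.7 and 235.3 CPM at d4. Dnmt3b alone made up 4130 and 3428 CPM at d2, Pou5f1 was at 999.6 and 721.4 CPM, Esrrb was at 4.42 and 3.80 CPM and Zfp42 was at 9.98 and 13.3 CPM. The endothelial markers summed to 25.7 and 20.5 CPM at d2 and to 1168 and 884.6 CPM at d4. Within each day the 2 replicates differed in a way that went with transcript GC (Spearman's rho over all tested genes was -0.726 at d2 and -0.494 at d4), so values within a day are given for both replicates.

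Of the 10 genes, 4 rose between d2 and d4, all by edgeR's quasi-likelihood test at an adjusted p under 0.01, and 6 did not pass. By the same test, 12.9% of all genes passed as higher, 11.3% passed as lower and 24.3% passed in either direction. The 4 that rose were Lama4, Nid1, Lamb2 and Lama1, so each of the alpha chains, the beta chains and the nidogens held at least 1 gene that rose. None of the 10 passed as lower by edgeR, DESeq2 or limma voom, and 8 of the 10 had an unadjusted p under 0.05 in edgeR, against 47.2% of all genes, Nid2 with a negative change among them. In 7 genes both d4 libraries lay above both d2 libraries, against 35.8% of all genes, and in 1 gene, Nid2, both lay below, against 35.2% of all genes. The median log2 fold change was 0.93 over the 10 genes and -0.027 over all genes tested. Without d2 replicate 1 or without d2 replicate 2, edgeR called no gene of the whole table (6257 and 5973 genes at an unadjusted p under 0.05), and DESeq2 called 3 and 2 of the 10 as higher.

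**Figure D1:**
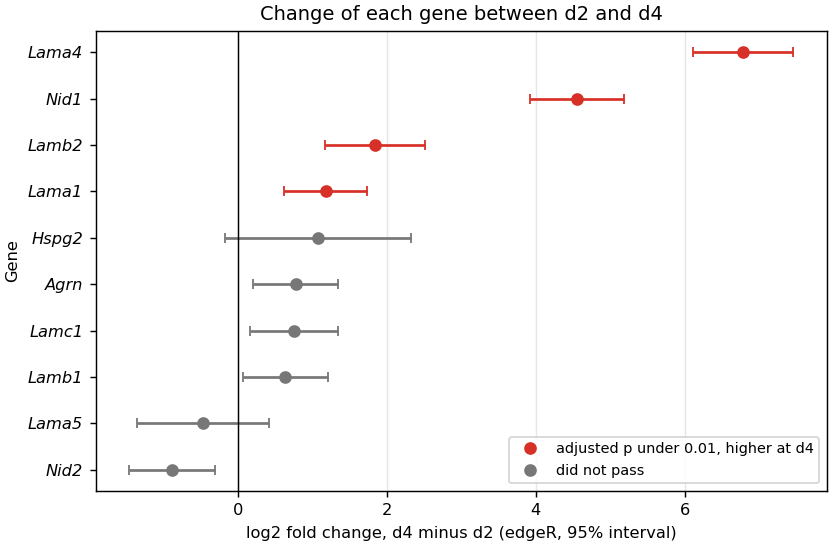
Log2 fold change of each of the 10 genes (horizontal axis, d4 minus d2) with its 95% interval from edgeR, with the genes that rose in red and the others in grey. Lama4 at 6.78 and Nid1 at 4.56 stand apart from the other 8, whose values run from -0.89 to 1.84.

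Lama4 was the gene of the set that changed most. The gene (ENSMUSG00000019846.11, GRCm38 chromosome 10 from 38965515 to 39110188, plus strand) encodes the short-armed alpha chain of vascular laminins. It had 11 and 10 counts in d2 replicates 1 and 2 and 1169 and 1452 counts in d4 replicates 1 and 2, which is 0.900 and 0.759 CPM at d2 and 98.9 and 85.4 CPM at d4. Both d4 libraries were far above both d2 libraries, and the replicates of a day lay close together. The level rose 110.1-fold (95% interval 68.9 to 175.9), a log2 fold change of 6.78 (standard error, SE, 0.28, adjusted p = 4.0e-05), the 227th highest of the 14932 genes. On its level per kilobase of exon, Lama4 was at percentile 3.84 of the tested genes at d2 and at percentile 61.0 at d4. These are whole cultures, so more cells with the transcript and more transcript per cell cannot be told apart, for this gene and for the others.

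Lama5, which encodes the widely expressed alpha chain of epithelial and vascular basement membranes (ENSMUSG00000015647.9, chromosome 2 from 180176373 to 180225859, minus strand), did not pass the test. Its 4 values were 158.9 and 87.6 CPM in d2 replicates 1 and 2 and 114.2 and 63.4 CPM in d4 replicates 1 and 2. The days overlapped, and within each day replicate 1 was the higher. The log2 fold change was -0.47 (95% interval -1.36 to 0.42, adjusted p = 0.36), and it was -0.96 without d4 replicate 1 and 0.00 without d2 replicate 1. Within each replicate number the d4 value was the lower. With the replicate number as a block the log2 fold change was -0.47 (adjusted p = 0.0235). With that block and GC content and transcript length corrected, Lama5 passed as lower (-0.73, adjusted p = 0.0011).

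Lama1, the alpha chain of the early embryo (ENSMUSG00000032796.8, chromosome 17 from 67697259 to 67822647, plus strand), was the lowest of the 3 per length at d4. It measured 11.4 and 10.7 CPM at d2 and 27.8 and 22.4 CPM at d4, and the days did not overlap. It rose 2.27-fold (95% interval 1.54 to 3.33), a log2 fold change of 1.18 (SE 0.23, adjusted p = 0.00733). This call lay near the threshold. It was lost with upper-quartile scaling (adjusted p = 0.0106), without d2 replicate 1 (0.0503), without d2 replicate 2 (0.0629) and without d4 replicate 1 (0.0215). In DESeq2 it was lost without each library in turn (0.0245 to 0.178). The log2 fold change with a library left out was 1.02 to 1.33.

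**Figure D2:**
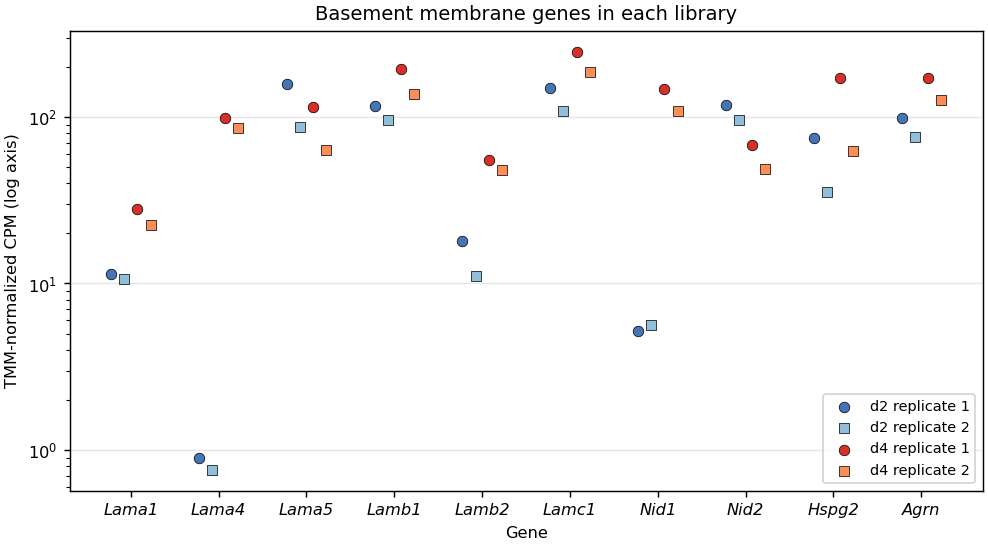
TMM-normalized CPM (vertical log axis) of the 10 genes in each of the 4 libraries, with d2 in blue, d4 in red, circles for replicate 1 and squares for replicate 2. Lama4 and Nid1 show the widest gap between the days, and the d2 and d4 points of Lama5 and Hspg2 overlap.

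The makeup of the alpha chains shifted as a result of these levels. Each library's level per kilobase of union exon length was summed over Lama1, Lama4 and Lama5, and each gene's share of the sum was taken. Lama4 held 0.490% and 0.710% of the alpha level at d2 and 38.9% and 47.3% at d4, a mean of 0.600% ± 0.156 and of 43.1% ± 5.99 (SD, n = 2). Lama5 held 91.7% and 86.8% at d2 and 47.5% and 37.2% at d4, a mean of 89.3% ± 3.49 and of 42.4% ± 7.30. Lama1 held 7.78% and 12.5% at d2 and 13.6% and 15.5% at d4. The shares of Lama4 and Lama5 thus moved by more than the spread between replicates, in opposite directions, while the level of Lama5 itself overlapped between the days. At d4 their shares could not be ordered, since Lama5 was the higher in replicate 1 and Lama4 in replicate 2.

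Length bears on that order. The union of the exons of Lama4 spans 12068 bases and its longest transcript 6046, whereas both lengths of Lama5 are 11388. With the longest transcript, Lama4 held 1.19% ± 0.306 of the alpha level at d2 and 60.0% ± 5.84 at d4, and Lama5 held 88.6% ± 3.65 and 29.7% ± 6.34 (SD, n = 2). On this scale Lama4 was above Lama5 in both d4 libraries. No test was made of the shares, because with 2 libraries per day the smallest two-sided p of an exact permutation test is 0.333.

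**Figure D3:**
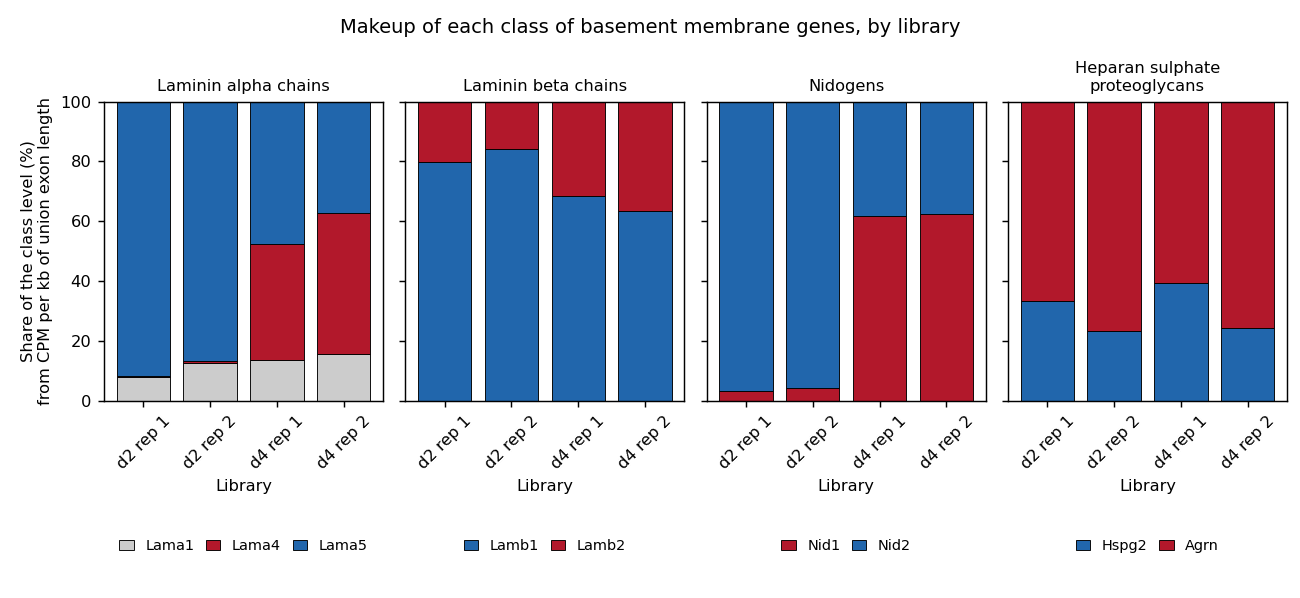
Share of each gene in the summed level of its class (vertical axis, percent, from CPM per kilobase of union exon length) in the 4 libraries, for the alpha chains, the beta chains, the nidogens and the proteoglycans. Lama4 and Nid1 hold under 5% at d2 and from 38.9% to 62.3% at d4, whereas the shares of Hspg2 and Agrn vary as much between replicates as between days.

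Of the beta chains, Lamb2 rose and Lamb1 did not pass. Lamb2 encodes the beta chain of vascular, neuromuscular and kidney basement membranes (ENSMUSG00000052911.9, chromosome 9 from 108479736 to 108490530, plus strand). It measured 17.9 and 11.1 CPM at d2 and 55.3 and 48.4 CPM at d4, with no overlap, and rose 3.57-fold (95% interval 2.24 to 5.69), a log2 fold change of 1.84 (SE 0.28, adjusted p = 0.00246). In DESeq2 without d2 replicate 2 it had an adjusted p of 0.0141 and a log2 fold change of 1.51. Lamb1, the beta chain of most embryonic laminins (ENSMUSG00000002900.17 in the count table, with the position and exons of ENSMUSG00000002900.16, chromosome 12 from 31265234 to 31329644, plus strand), measured 116.4 and 96.3 CPM at d2 and 194.1 and 137.1 CPM at d4. Both of its d4 values were the higher, and the log2 fold change of 0.64 (95% interval 0.07 to 1.21) had an adjusted p of 0.0777. Lamb2 held 20.1% and 15.8% of the beta level at d2 and 31.7% and 36.5% at d4 by union exon length, and a mean of 12.1% and 24.6% by the longest transcript. Lamb1 was the more abundant beta chain per length in all 4 libraries on both scales.

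Lamc1 encodes the gamma chain shared by most laminins and needed for the first basement membranes of the embryo (ENSMUSG00000026478.14, chromosome 1 from 153218922 to 153332786, minus strand). It measured 148.7 and 108.2 CPM at d2 and 245.4 and 187.7 CPM at d4. The days did not overlap, and the log2 fold change of 0.75 (SE 0.24, 95% interval 0.17 to 1.34) had an adjusted p of 0.0491, over the threshold of 0.01. The chains of the trimer can be set against one another per length. Summed alpha chains stood at 0.846 and 0.677 of Lamc1 at d2 and at 0.711 and 0.659 at d4 by union exon length, with overlap between the days. Summed beta chains stood at 0.817 and 0.882 of Lamc1 at d2 and at 0.966 and 0.959 at d4. These ratios depended on the length taken, and by the longest transcript the alpha ratio was 0.707 ± 0.110 at d2 and 0.903 ± 0.0110 at d4, and the beta ratio was 1.25 ± 0.0826 and 1.33 ± 0.0257 (SD, n = 2). The order of beta and gamma levels turned with the length, and the alpha sum was below Lamc1 in each library on both scales.

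Of the nidogens, Nid1 rose and the lower values of Nid2 did not pass. Nid1 (ENSMUSG00000005397.8, chromosome 13 from 13437551 to 13512269, plus strand) encodes the nidogen that binds the laminin gamma chain and type IV collagen. It had 63 and 74 counts at d2 and 1730 and 1836 counts at d4, or 5.15 and 5.62 CPM and then 146.4 and 108.0 CPM. The gap between days was far wider than that between replicates, and Nid1 rose 23.6-fold (95% interval 15.2 to 36.4), a log2 fold change of 4.56 (SE 0.26, adjusted p = 7.0e-05). On its level per kilobase it moved from percentile 20.6 of the tested genes to percentile 80.0.

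Nid2, its homologue (ENSMUSG00000021806.4, chromosome 14 from 19751265 to 19811787, plus strand), was the most abundant of the 10 genes per length at d2. It measured 118.5 and 96.1 CPM at d2 and 67.5 and 48.7 CPM at d4, and both d4 libraries were below both d2 libraries. The log2 fold change was -0.89 (SE 0.24, 95% interval -1.46 to -0.31, adjusted p = 0.0258). It passed as lower with GC content and transcript length corrected (log2 fold change -1.14, adjusted p = 9.4e-04) and without d4 replicate 1 (-1.14, adjusted p = 0.00934). Nid1 held 3.14% and 4.17% of the nidogen level at d2 and 61.8% and 62.3% at d4, and Nid2 held the rest. The mean share of Nid1 was 3.66% ± 0.732 at d2 and 62.1% ± 0.375 at d4 (SD, n = 2). At d4 this spread between replicates was the smallest among the classes. By the longest transcript the share was 3.92% and 63.7%. Exons of 437 bases of Nid2 and 143 bases of Nid1 overlap genes of the opposite strand, Rtraf and Gm48682, and the counting used the strand.

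The bases before the start of transcription are shown for 4 genes, 2 that rose (Nid1 and Lamb2) and 2 laminin chains that did not pass (Lamb1 and Lama5). They are taken from the 250 bases before the RefSeq start on GRCm38.p6 and stop before the first base of the gene in GENCODE M21, which left out the last 51 bases for Nid1, 126 for Lamb2 and 59 for Lamb1. They are printed 5′ to 3′ on the strand of the gene, at chr13:13437352-13437550 (plus strand), chr9:108479612-108479735 (plus), chr12:31265043-31265233 (plus) and chr2:180225860-180226109 (minus). Capitals mark GC boxes, GGGCGG on either strand.
Nid1: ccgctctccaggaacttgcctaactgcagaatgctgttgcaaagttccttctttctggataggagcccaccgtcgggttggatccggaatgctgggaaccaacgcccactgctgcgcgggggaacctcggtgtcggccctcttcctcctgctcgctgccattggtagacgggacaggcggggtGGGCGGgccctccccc
Lamb2: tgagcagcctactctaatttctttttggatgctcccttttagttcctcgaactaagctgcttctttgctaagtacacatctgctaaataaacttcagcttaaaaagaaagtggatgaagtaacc
Lamb1: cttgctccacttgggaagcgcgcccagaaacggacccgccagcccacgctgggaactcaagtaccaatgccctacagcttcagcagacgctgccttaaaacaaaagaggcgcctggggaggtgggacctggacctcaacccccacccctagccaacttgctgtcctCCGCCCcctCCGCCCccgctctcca
Lama5: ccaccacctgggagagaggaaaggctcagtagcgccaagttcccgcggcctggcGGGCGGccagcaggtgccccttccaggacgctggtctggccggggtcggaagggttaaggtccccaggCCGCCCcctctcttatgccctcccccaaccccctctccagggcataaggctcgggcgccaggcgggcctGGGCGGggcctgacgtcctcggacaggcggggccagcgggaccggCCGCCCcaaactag
The table of promoters held 6 of the 10 genes (these 4, Hspg2 and Agrn), and did not hold Lama1, Lama4, Lamc1 or Nid2. Counted over the whole 250 bases, the Nid1 window held 1 GC box, Lamb1 held 2, Lama5 held 4, Hspg2 held 5 and the upstream window of Agrn held 12, some of them overlapping, while Lamb2 held none. Of 32851 mouse promoter windows of this length, 32.7% held a GC box. The GC content was 64.4% for Nid1, 62.0% for Lamb1, 72.4% for Lama5 and 43.6% for Lamb2, against a median of 52.4% over all windows. Searched on both strands, none of the 6 held a match to the other 4 motifs. These were the binding motif of GATA factors, spelled AGATAA (found in 10.0% of all windows), that of ETS factors, spelled CCGGAAG (6.9%), that of AP-1, spelled TGACTCA (4.5%), and the TATA box, spelled TATAAA (12.4%). A match or its absence describes these letters in this window and nothing more.

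The heparan sulphate proteoglycans did not pass the test. Agrn, known for gathering acetylcholine receptors at the neuromuscular junction and present in many basement membranes (ENSMUSG00000041936.18, chromosome 4 from 156165290 to 156197488, minus strand), measured 98.4 and 75.7 CPM at d2 and 171.1 and 127.3 CPM at d4. Both d4 values were above both d2 values, and the log2 fold change of 0.78 (SE 0.24, 95% interval 0.20 to 1.35) had an adjusted p of 0.0418. Hspg2 (ENSMUSG00000028763.18 in the count table, with the position and exons of ENSMUSG00000028763.17, chromosome 4 from 137468769 to 137570630, plus strand) encodes perlecan, whose heparan sulphate binds fibroblast growth factors and VEGF. It measured 75.3 and 35.5 CPM at d2 and 172.0 and 62.5 CPM at d4. The value of d4 replicate 2 was below that of d2 replicate 1, so the days overlapped. The log2 fold change was 1.08 with a wide interval (SE 0.52, 95% interval -0.17 to 2.33, adjusted p = 0.151). It was 0.18 without d4 replicate 1, 1.69 without d2 replicate 1 and 1.64 without d4 replicate 2. With all libraries in, Hspg2 passed with the replicate number as a block (1.01, adjusted p = 1.3e-05). It also passed with that block and GC content and length corrected (0.81, adjusted p = 0.00251), and without a filter on low counts (1.09, adjusted p = 1.3e-04). It did not pass in DESeq2 (1.06, adjusted p = 0.138) or limma voom (0.99, adjusted p = 0.198). Hspg2 held 33.2% and 23.4% of the summed level of both genes at d2 and 39.5% and 24.2% at d4, so no exchange beyond the spread was seen.

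The difference between the replicates of d2 went with the GC content of the transcripts over the 10 genes, and at d4 it did so less. In replicate 2 of d2, 9 of the 10 were lower than in replicate 1, and at d4 all 10 were. Hspg2 and Lama5 have the highest GC content of the longest transcript, 60.9% and 59.9%, and they had the largest differences of replicate 2 from replicate 1, -1.07 and -0.86 on the log2 scale at d2 and -1.45 and -0.84 at d4. Lama4 and Nid1 have the lowest, 50.0% and 50.4%, with differences of -0.15 and 0.11 at d2 and of -0.21 and -0.44 at d4. Lamb2, the third in GC content at 58.8%, differed by -0.67 at d2 but by -0.19 at d4, the smallest difference of that day. Over the 10 genes, Spearman's rho of GC content with the replicate difference was -0.84 at d2 and -0.39 at d4, given as a description because the points share their libraries. With GC content and transcript length corrected, 4 of the 10 genes were higher and 1, Nid2, was lower, against 18.2% and 18.1% of all genes in that fit. The log2 fold changes in it were 0.89 for Hspg2 (adjusted p = 0.0747) and -0.71 for Lama5 (adjusted p = 0.0229).

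**Figure D4:**
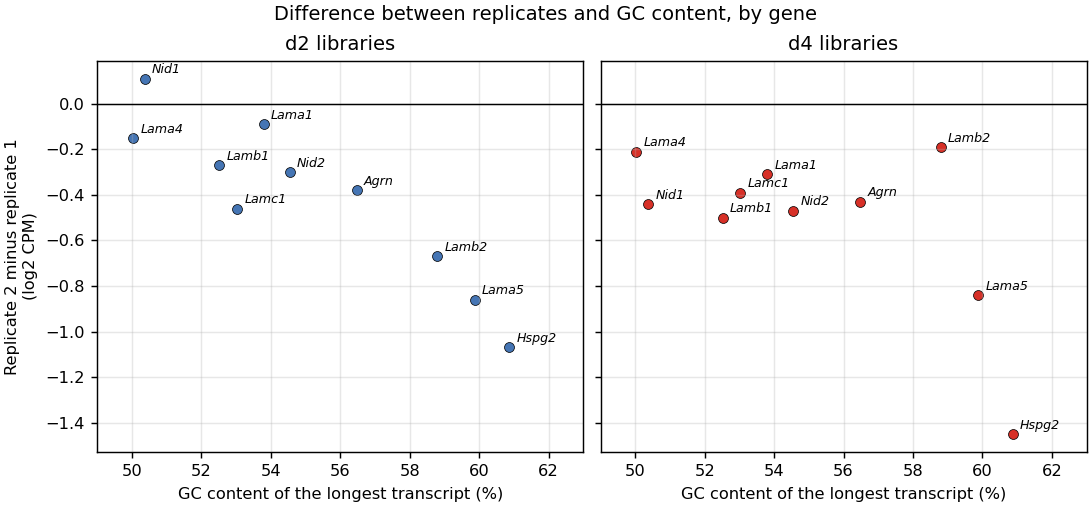
Difference of replicate 2 from replicate 1 (vertical axis, log2 CPM) against the GC content of the longest transcript (horizontal axis, percent) for the 10 genes, at d2 on the left and at d4 on the right. The genes richest in GC, Hspg2 and Lama5, lie lowest on both days.

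Ordered by level per kilobase of union exon length, Nid2 led at d2 with a mean of 20.7 CPM per kilobase and did not overlap the next gene, Lamc1, at 15.5. Lamc1, Lama5, Lamb1 and Agrn followed, each overlapping its neighbour, with means of 15.5, 10.8, 10.7 and 9.37. Hspg2 and Lamb2 overlapped each other at 3.87 and 2.38, and Lama1, Nid1 and Lama4 closed the order at 1.14, 0.776 and 0.0687 without overlap. At d4 the ratio of the highest to the lowest gene was smaller. Lamc1 led at 26.2 without overlap, then Nid1, Lamb1 and Agrn at 18.3, 16.7 and 16.1, each overlapping its neighbour, then Nid2 alone at 11.2. Lamb2, Hspg2, Lama5 and Lama4 lay together at 8.52, 8.20, 7.80 and 7.64, and Lama1 was last at 2.60. By the longest transcript, Lamb1 moved up to 18.4 at d2 and overlapped Nid2 at 22.0, so that the lead of Nid2 without overlap held for the union of exons only. On the same scale Lamb1 moved to the top at d4 with 28.6, overlapping Lamc1 at 28.4, and Lama4 moved up to 15.3, overlapping Agrn at 17.3.

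Type IV collagen, the other network of the basement membrane, also rose in part between d2 and d4. Of 9 genes listed as basement membrane collagens and peroxidasin, 6 were tested. Of these, 4 rose, against 12.9% of all genes tested, and the other 2 did not pass, with a median log2 fold change of 2.89. Col4a2, which pairs with Col4a1 in the common form of the collagen, went from 12.4 and 10.3 CPM at d2 to 182.4 and 131.2 CPM at d4, a log2 fold change of 3.78 (SE 0.27, adjusted p = 1.2e-04). Col4a6 and Col4a5, chains of a form found around smooth muscle and some epithelia, had log2 fold changes of 3.47 and 2.83 (adjusted p = 1.8e-04 and 2.3e-04). Col4a1, named after its values were seen, was at 51.8 and 36.8 CPM at d2 and at 400.4 and 284.3 CPM at d4. The kidney chains Col4a3 and Col4a4 and the multiplexin Col15a1 were under the filter.

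Laminin chains outside the set were also looked at, and Lamc3 was under the filter. Lama3, an alpha chain of epithelia, measured 3.11 and 2.05 CPM at d2 and 11.3 and 7.53 CPM at d4. It rose, with a log2 fold change of 1.86 (SE 0.36, adjusted p = 0.00635), and kept this call in all 12 alternatives that used all libraries but in only 2 of 8 fits with a library left out. Lamb3, an epithelial beta chain, was at 1.31 and 1.22 CPM at d2 and at 0.423 and 0.118 CPM at d4 (log2 fold change -2.31, adjusted p = 0.0238), and Lama2, the muscle chain, was at 0.491 and 0.0759 CPM and then at 1.52 and 2.24 CPM (2.74, adjusted p = 0.0162), and neither passed. Adding Lama2 and Lama3 to the alpha sum left Lama4 at 40.8% and Lama5 at 40.2% of it at d4.

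Of 13 other basement membrane components, 12 were tested. Of these, 6 rose and 1 was lower, against 12.9% and 11.3% of all genes tested, and 5 did not pass. The median log2 fold change was 1.78, also with Tinagl1, which had no counts at d2, at its lower bound of 3.43. Frem1, a component of embryonic epithelial basement membranes, went from 5.72 and 5.54 CPM to 40.5 and 53.8 CPM (log2 fold change 3.07, SE 0.25, adjusted p = 1.9e-04). Sparc, a collagen-binding glycoprotein that takes part in collagen IV deposition, went from 64.9 and 58.7 CPM to 400.7 and 317.9 CPM (2.54, SE 0.22, adjusted p = 2.2e-04). Egflam (pikachurin), a ligand of dystroglycan, went from 0.409 and 0.456 CPM to 4.57 and 4.00 CPM (3.28, SE 0.38, adjusted p = 7.4e-04).

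Of 9 laminin and agrin receptors, 1 rose, 1 was lower and 7 did not pass, a share near that of all genes tested, with a median log2 fold change of -0.04. Itgb1, the beta subunit shared by most laminin integrins, rose from 202.2 and 279.8 CPM to 595.3 and 628.6 CPM (log2 fold change 1.34, SE 0.22, adjusted p = 0.00331), and Itga6, its laminin-binding alpha partner, fell from 192.8 and 199.9 CPM to 82.9 and 82.8 CPM (-1.25, SE 0.19, adjusted p = 0.00217). Itga3, another laminin-binding alpha subunit, was at 11.9 and 9.57 CPM and then at 5.08 and 5.53 CPM (-1.01, adjusted p = 0.0226). Ispd and Pomt1, which act in the glycosylation of the receptor dystroglycan, had log2 fold changes of 1.40 (adjusted p = 0.0117) and 0.84 (adjusted p = 0.0209) and did not pass.

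Of 16 tested genes for the synthesis and editing of heparan sulphate, the sugar carried by perlecan and agrin, 2 rose, 2 were lower and 12 did not pass. These shares are near those of all genes tested, 12.9% higher and 11.3% lower. The median log2 fold change was 0.64. Ndst1, which starts the sulphation of the chain, rose from 37.6 and 33.6 CPM to 111.9 and 114.1 CPM (log2 fold change 1.67, SE 0.20, adjusted p = 7.9e-04). B3gat3, of the linker that joins the chain to its core protein, also rose (1.19, SE 0.23, adjusted p = 0.00666). Hs6st1, one of the enzymes that sulphate the glucosamine units, fell from 56.2 and 38.6 CPM to 16.0 and 12.8 CPM (-1.72, SE 0.27, adjusted p = 0.00265).

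**Figure D5:**
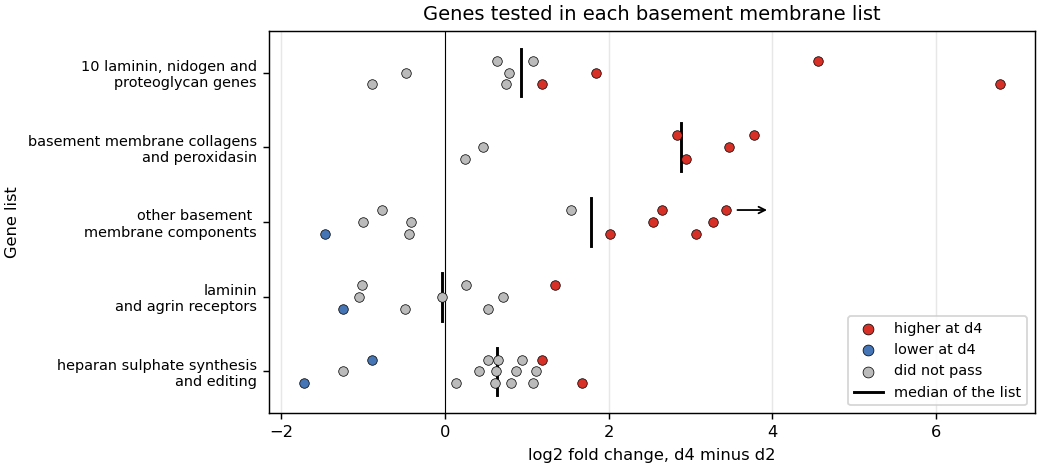
Log2 fold change (horizontal axis, d4 minus d2) of each tested gene in the 10-gene set and in 4 wider lists, with genes that rose in red, genes that fell in blue, the others in grey and a black bar at the median. Tinagl1 is drawn at its lower bound of 3.43 with an arrow. The medians run from -0.04 for the receptors to 2.89 for the collagens and peroxidasin.

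Markers of several cell types were also looked at, and their lists changed in both directions. Over all genes tested, 12.9% rose and 11.3% were lower. Of 9 endothelial markers tested, 7 rose and 2 did not pass, with the smallest adjusted p for Kdr, Cdh5 and Tie1. Emcn was under the filter, with no counts at d2 and only 2 and 3 counts at d4. Of 6 mural cell markers tested, 3 rose and 1 was lower (led by Rgs5, Pdgfrb and Cnn1, which was the lower one). The summed level of the list was 33.8 and 29.9 CPM at d2 and 292.9 and 309.9 CPM at d4. Most of the d4 sum came from Rgs5 (112.3 and 173.5 CPM) and Pdgfrb (125.9 and 102.8 CPM). Tagln and Mylk did not pass, and Cspg4 was under the filter. Of 12 visceral and parietal endoderm markers, 7 were tested, of which 3 rose (Pth1r, Sox17 and Thbd) and 4 did not pass. The others, Afp, Ttr, Apoa1, Amn and Foxa2, were under the filter. Summed levels of the list were 19.3 and 19.3 CPM at d2 and 59.0 and 54.0 CPM at d4. Afp and Ttr, which define visceral endoderm, had no counts at d2 and at most 0.846 CPM at d4. All 6 primitive blood markers rose, led by Hbb-bh1, Gata1 and Klf1, from 2.21 and 2.20 CPM to 367.5 and 241.3 CPM in sum. Of 4 cardiomyocyte markers tested, Tnnt2 rose and Myh6 and Actn2 were lower, at summed levels of 33.4 and 23.2 CPM and then 21.4 and 19.2 CPM. Of 10 pluripotency and epiblast markers, 8 were lower, led by Pou5f1, Fgf5 and Dnmt3b, and Utf1 had no counts at d4. The part of each of these cell types in the levels of the laminins, nidogens and proteoglycans was not tested.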

How the data were processed

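Strand-specific paired-end libraries of 75 bp were made from total RNA. By the methods of the study, the authors trimmed reads with cutadapt, aligned them to mm10/GRCm38 with STAR and counted them per gene with featureCounts, by strand, leaving out reads with several positions or genes. The deposited values are raw counts, with no filter or normalization. The annotation is named as both a GENCODE and an Ensembl release, so symbols, positions and exon lengths were taken from GENCODE M21, which held 55227 of 55487 IDs. Replicates came from separate differentiation experiments.

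The authors' filter was rebuilt: per day, summed counts were set against 0.5 CPM by a one-sided proportion test, and genes with an adjusted p under 0.05 on either day stayed in. All libraries were compared in R 4.3.3 with edgeR 4.0.16 (TMM, glmQLFit, glmQLFTest, day only, two-sided), Benjamini-Hochberg adjusted over all 14932 genes at 0.01, and each adjusted p is from this test unless another is named. Levels are TMM-normalized CPM, compared between genes only per kilobase of exon. Intervals are of 95%. The biological coefficient of variation was 23.6%, and the code was tested on simulated data. Floors cover counting error only.

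The genes and lists were chosen with earlier results of these data known. All 10 genes are named, with 3 genes of smallest adjusted p per wider or marker list, or all where at most 5 were tested, except that some are not reported here. Alternatives were DESeq2 1.42.0, limma 3.58.1 voom, other scalings, filters and thresholds, thinning, a replicate block, a GC and length offset and leaving out each library. The study's second method, noiseq, was not rebuilt here.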

Additional observations from a re-analysis of the deposited data

How the results depend on the processing

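Of the 10 genes, Lama4, Nid1 and Lamb2 kept their calls in all 12 alternatives that used all libraries, and Lama1 lost its call with upper-quartile scaling only. Every one of the 10 log2 fold changes kept its sign in those 12. Without a filter on low counts, 7 of the 10 genes were higher and 1 lower, with 2901 and 2873 genes in all. At an adjusted p under 0.05, 1 was lower, with 2991 genes higher and 2679 lower. With GC content and length corrected, 1 was lower (2696 genes in all). Leaving out 1 library in turn gave 0 to 5 of the 10 higher, 0 to 1 lower, 0 to 2264 genes higher and 0 to 2458 lower over edgeR and DESeq2, where DESeq2 gave 1042 higher and 732 lower without d2 replicate 1, 973 and 722 without d2 replicate 2, 1247 and 1127 without d4 replicate 1, and 1272 higher without d4 replicate 2. The log2 fold change of Lama5 then ran from -0.96 to 0.00. The single library left for a day was then assumed to vary like the other day, and fewer samples leave fewer degrees of freedom. By the longest transcript in place of the union of exons, alpha chain shares at d4 were 10.3% for Lama1, 60.0% for Lama4 and 29.7% for Lama5, Lama4 at d2 was 1.19%, the alpha to gamma ratio at d4 was 0.903, and the beta to gamma ratio was 1.25 at d2 and 1.33 at d4. With all laminin chains the last was 0.945. The length alternative for the beta chains, nidogens and proteoglycans, and all alternatives for the wider lists, were chosen after seeing the data. With a library left out, the genes named as passing from the wider lists did so in 2 to 6 of 8 fits each.

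The replicate numbers are shared between days, but the labels do not say that a number marks a common experiment. Deviations of same-numbered libraries correlated at 0.539 across genes. With the replicate number as a block, 8 of the 10 genes were higher and 1 lower, with 3478 genes higher and 3496 lower in all. With the block and the GC and length correction together, 6 were higher and 2, Nid2 and Lama5, were lower. In all, 3359 genes were higher and 3481 lower in that fit. The d2 value of Lama4 rests on 11 and 10 counts.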
